A study of Homo sapiens with 8 samples.

Results

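The regions described here are accessible chromatin sites, away from gene starts, that hold both an AP-1 and a GATA recognition word close to the point of strongest signal. They were found by merging the ATAC-seq peak lists of 4 libraries into 43569 regions on 24 chromosomes. Of these, 24937 were distal, meaning that they lay over 1 kb from every annotated transcript start. Within 100 bp of the summit, 1215 distal regions held the 7-letter AP-1 word TGANTCA (N is any base) together with one of the 6-letter GATA words AGATAA and TGATAA, on either strand. The words and the distance set the choice, and no difference between treatments entered it. A region had to be called in at least 1 library, however, and its summit was that of its highest-ranked peak, so that 164 regions entered through SCF 2 alone. The other distal regions were 1662 with AP-1 and no GATA word, 7941 with GATA and no AP-1 word and 14119 with neither. The 1 kb limit placed 206 further regions with both words near a start, 57 of them between 500 and 1000 bp, while the nearest region kept lay 1004 bp away.

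ATAC-seq uses the transposase Tn5 to cut and tag open DNA, so that fragments pile up where chromatin is accessible. The cells were HUDEP2, an established immortalised line of human erythroid precursors, and all 4 libraries came from cells carrying the scrambled guide construct sgControl. After 5 h without growth factors, cells received stem cell factor (SCF) at 50 ng/ml or phosphate-buffered saline (PBS) for 1 h, with 2 libraries of about 50000 cells for each treatment. The sgEGR1 samples were not analysed here.

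AP-1 factors are dimers of basic leucine zipper proteins of the FOS, JUN and related families, and growth factor receptors such as Kit raise their activity through MAP kinase signalling. GATA1 and GATA2 are zinc finger factors that bind the GATA word at the enhancers of erythroid genes, often together with TAL1. NF-E2, an erythroid relative of AP-1, prefers a longer form of the AP-1 word that begins with TGC, and in red cell precursors it also acts beside GATA1.

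The sequences that show the pairing come first, all on the plus strand of GRCh37 (hg19), with the closest AP-1 and GATA words in capitals. The 5 tightest arrangements share 1 base, the final A of the AP-1 word serving as the first A of the GATA word or the same on the other strand, and are named by the nearest protein-coding gene.

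FAM187B, chr19:35711449-35711490: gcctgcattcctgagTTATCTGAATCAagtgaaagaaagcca
CTIF, chr18:46246946-46246987: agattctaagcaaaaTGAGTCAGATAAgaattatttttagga
DNAJB12, chr10:74080656-74080697: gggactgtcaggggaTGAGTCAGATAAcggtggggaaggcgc
C6orf141, chr6:49524388-49524429: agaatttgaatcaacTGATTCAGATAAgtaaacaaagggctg
STIL, chr1:47745977-47746018: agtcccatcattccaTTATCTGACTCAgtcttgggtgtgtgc

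The next 7 carry the treatment results below. They are the 4 regions with the largest rise in rank with SCF (SFMBT2, PTPRK, GOLGA1, SYNJ2), the largest fall (GCNT2), the strongest region called only with SCF (RNF144B) and the strongest of all (PLEKHG4).

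SFMBT2, chr10:7070261-7070355: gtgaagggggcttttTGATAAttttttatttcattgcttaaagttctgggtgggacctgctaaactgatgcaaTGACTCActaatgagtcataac
PTPRK, chr6:128830206-128830315: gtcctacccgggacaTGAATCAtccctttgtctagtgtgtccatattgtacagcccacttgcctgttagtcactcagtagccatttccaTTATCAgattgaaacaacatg
GOLGA1, chr9:127736318-127736475: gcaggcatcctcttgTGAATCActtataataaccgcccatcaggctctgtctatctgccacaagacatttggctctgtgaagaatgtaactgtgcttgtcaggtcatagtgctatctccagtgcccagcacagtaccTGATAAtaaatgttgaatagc
SYNJ2, chr6:158461591-158461639: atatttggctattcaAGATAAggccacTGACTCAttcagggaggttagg
GCNT2, chr6:10519286-10519397: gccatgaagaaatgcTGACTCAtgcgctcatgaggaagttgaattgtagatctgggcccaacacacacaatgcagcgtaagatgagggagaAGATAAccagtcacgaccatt
RNF144B, chr6:18585426-18585575: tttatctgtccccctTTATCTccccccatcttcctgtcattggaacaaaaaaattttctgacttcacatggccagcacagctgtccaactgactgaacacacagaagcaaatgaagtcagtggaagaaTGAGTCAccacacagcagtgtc
PLEKHG4, chr16:67302283-67302369: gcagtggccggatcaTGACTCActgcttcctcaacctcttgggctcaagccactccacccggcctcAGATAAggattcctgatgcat

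The closest AP-1 and GATA words of a region were separated by a median of 37 bp (quartiles 16 and 66, highest 180 bp). A gap of at most 10 bp was found in 199 of 1215 regions (16.4%, 95% Wilson interval 14.4 to 18.6%), one of 11 to 50 bp in 549 and one of over 50 bp in 467. The words overlapped by 1 bp in 5 regions and touched in 5. Of the 206 regions near a start with both words, 36 had a gap of at most 10 bp (17.5%, 12.9 to 23.2%), an interval that overlaps that of the distal regions. Intervals in this text cover counting error only, and regions of one genome are not independent replicates.

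Close pairs mostly had a single orientation. The GATA word read toward AP-1 (AGATAA or TGATAA, 5′ to 3′, then the AP-1 word, as at SYNJ2) in 140 of the 199 regions with a gap of at most 10 bp, or 70.4% (63.7 to 76.3%). It read toward AP-1 in 73 of 103 regions with gaps up to 5 bp (70.9%) and in 67 of 96 with gaps of 6 to 10 bp (69.8%). Beyond 10 bp the share lay between 42.7% and 53.6% in each of the 5 wider classes, and it was 46.3% (39.1 to 53.7%) at 11 to 20 bp. Single gaps varied. The most one-sided from 1 to 10 bp were 3 bp, with 21 regions toward and 3 away, and 6 bp, with 18 and 3. At 2 bp the numbers were 5 and 5, and at 10 bp they were 10 and 7. The letters fix the orientation of the overlaps only, since a 1 bp overlap is possible only when GATA reads away. All 5 overlaps read away, opposite to most of the close pairs. Over all regions the orientations were nearly even, with 627 toward and 588 away. Near a start, 21 of 36 close pairs read toward AP-1. The orientation split was looked at after the spacing had been seen, and no test was made of it.

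**Figure D1:**
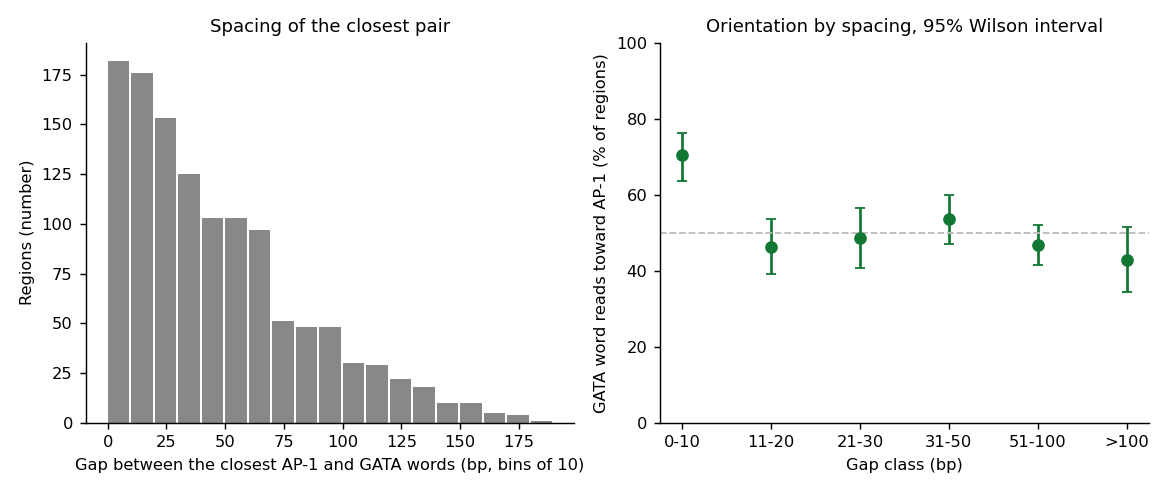
Left, number of the 1215 distal regions (y axis) by gap in bp between the closest AP-1 and GATA words (x axis, bins of 10 bp). Right, percent of regions in each gap class whose GATA word reads toward AP-1, with 95% Wilson intervals and a dashed line at 50%; the class of 0 to 10 bp sits at 70.4% and the others lie between 42.7% and 53.6%.

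The middle base of the closest AP-1 word was C in 449 regions, G in 446, T in 175 and A in 145. TGACTCA and its complement TGAGTCA, the classic phorbol ester response element, thus made up most of the words. One AP-1 word was present in 1116 regions, 2 in 91 and 3 in 8, while 868 regions held 1 GATA word, 301 held 2, 41 held 3 and 5 held 4. The long NF-E2 form, in which TGC stands directly before the AP-1 word, was present in 95 regions (7.82%, 6.44 to 9.46%). It was more frequent in AP-1 regions without GATA, at 195 of 1662 (11.7%, 10.3 to 13.4%), with intervals that do not overlap. The long form was found in 0.794% of all merged regions, the AP-1 word in 8.43% and a GATA word in 25.4%.

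Other words were counted on both strands in the same windows. The MYB word AACNGT lay in 27.3% of the 1215 regions, against 22.2% with AP-1 and no GATA, 24.4% with GATA and no AP-1, 17.6% with neither and 17.0% of all merged regions. The CTCF word, the mark of insulator sites, lay in 1.23%, against 3.85%, 2.61%, 7.20% and 4.26% in the same order. The SP word CCCGCCC of GC-rich promoters lay in 1.73%, against 5.11%, 2.32%, 7.56% and 16.8%. The EGR word GCGTGGG was found in only 9 regions (0.741%), against 2.41%, 1.01%, 2.60% and 3.799%. Base composition differed too, with a median GC content of 43.8% against 49.3%, 44.8% and 51.7% in the other 3 distal sets, and its part in these counts was not tested. The remaining words ranged from 0.165% for the cAMP response element TGACGTCA to 21.1% for the E-box CAGATG. Between these lay the E-box CAGCTG (14.8%), ETS GGAAGT (12.2%), RUNX TGTGGT (17.0%), KLF CACACCC (6.58%) and STAT TTCNNNGAA (5.76%), against 14.0%, 13.3%, 12.4%, 6.78% and 5.09% of all merged regions. The cAMP word and CAGATG lay in 0.682% and 13.7% of all merged regions, and in 0.192% and 17.6% of all distal regions. A word is a match of letters and does not show that a factor was bound.

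By position, 768 of the regions (63.2%) had their summit in an intron, 382 (31.4%) between genes, 27 in a non-coding exon, 24 in a UTR and 14 in a coding exon. The nearest protein-coding start was a median of 28.5 kb away, against 22.6 kb for AP-1 without GATA, 24.4 kb for GATA without AP-1 and 19.2 kb for neither. It lay beyond 100 kb for 218 regions. The 1215 regions had 1109 different nearest genes, and 1013 of these genes were nearest to a single region.

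Before the comparison of treatments, the libraries themselves were set side by side. They held 29269 to 33616 peaks with a median recovered summit pileup of 20 to 26, and read totals were not in the lists. Pileups are called fragments in this text, although the unit counted is not given. SCF 2 stood apart: it called 971 of the 1215 regions (79.9%), against 744 (61.2%) in PBS 1, 842 (69.3%) in PBS 2 and 752 (61.9%) in SCF 1. Over all merged regions SCF 2 was not the highest, with 75.3% against 68.5%, 76.5% and 66.1%. The main differences and counts are therefore also given without SCF 2, which leaves 1 SCF library and no test. As a check of the cell type, the promoters of 11 of 12 erythroid markers had a peak in all 4 libraries, including GATA1, TAL1, KLF1 and KIT, and ALAS2 had one in fewer. Promoters of 4 of 7 myeloid markers (CSF1R, CD14, SPI1, CEBPA), 2 of 8 lymphoid (PAX5 among them) and 3 of 7 hepatic, epithelial and fibroblast markers (EPCAM, CDH1, COL1A1) were also called in all 4. An open promoter is not a measure of expression, and the part of other cells in the results was not tested.

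The question of the treatment comparison is which sites gain or lose accessibility when SCF activates Kit. The level used was the deposited fold enrichment at the summit on a log2 scale, centred in each library on the median of the 22355 regions called in all 4 libraries, 522 of which hold both words. The median of those 522 was −0.22 in PBS 1, −0.17 in PBS 2, −0.12 in SCF 1 and 0.023 in SCF 2. Both SCF values thus lay above both PBS values, but SCF 1 was closer to PBS 2 than to SCF 2. The means were −0.19 ± 0.04 for PBS and −0.050 ± 0.10 for SCF (SD, n = 2), a difference of 0.14 (two-sided exact permutation p = 0.333, the smallest that 2 against 2 libraries allow). Without SCF 2 the difference was 0.053, and without SCF 1 it was 0.19. Of the 522 regions, 358 (68.6%) had a higher SCF than PBS mean, against 49.6% of all regions called in all 4. In AP-1 regions without GATA the share was nearly the same, at 68.4% (363 of 531). Without SCF 2 the shares were 60.2% (327 of 543) with both words, 51.9% of all regions and 65.1% for AP-1 without GATA. The labels do not say that replicates came from separate cultures, although the study's methods call them biological duplicates, so the spread may in part be technical.

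The same was computed for the other distal sets. AP-1 regions without GATA had medians of −0.37 and −0.40 with PBS and −0.20 and −0.20 with SCF, a difference of 0.18 (531 regions, exact permutation p = 0.333), and here the SCF libraries lay together. GATA regions without AP-1 had −0.19 and −0.18 with PBS and −0.18 and −0.13 with SCF, a difference of 0.026 (3272 regions, exact permutation p = 0.667) that was −0.016 without SCF 2. Regions with neither word differed by −0.0061 (4294 regions, exact permutation p = 1). The difference in the regions with both words exceeded that in GATA regions without AP-1 by 0.12 (exact permutation p = 0.333), a value that was 0.069 without SCF 2 and 0.14 without SCF 1. Against AP-1 regions without GATA the difference was −0.042 (exact permutation p = 0.667), which became −0.12 without SCF 2, −0.072 without PBS 1 and −0.0048 without SCF 1. The order of these sets depended on the summary, since the median of the single-region differences was 0.15 with both words and 0.11 for AP-1 without GATA. A difference in response between regions with AP-1 that have or lack GATA was therefore not detectable. With AP-1 present, having a GATA word went with a higher level in every library, by 0.071 to 0.23 on this scale.

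**Figure D2:**
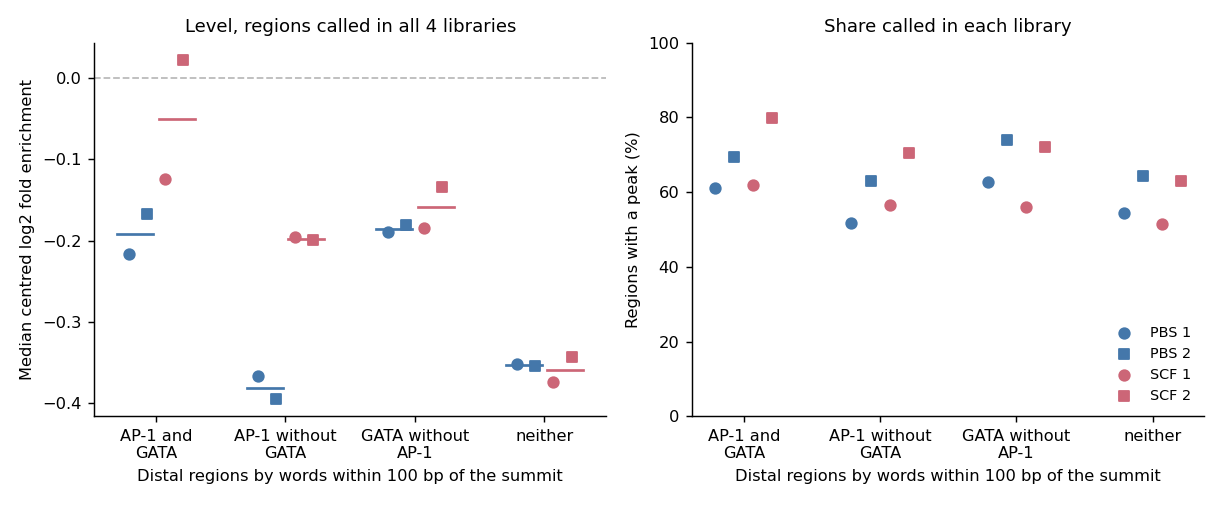
Left, median centred log2 fold enrichment (y axis) of distal regions called in all 4 libraries, by words near the summit (x axis); points are libraries (blue PBS, red SCF; circles replicate 1, squares replicate 2) and lines are treatment means. Right, percent of all distal regions of each set with a peak in each library; SCF 2 called 79.9% of the regions with both words, the highest value shown.

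Within each library, peaks were also ranked by fold enrichment as percentiles, where 100 is the strongest peak. A region was a rank gain when its lower SCF rank lay at least 10 points above its higher PBS rank, and a rank loss in the mirror case. There were 50 rank gains among the 522 regions (9.58%, Wilson interval 7.34 to 12.4%), where 2.56% of all 22355 regions gained. There were 8 rank losses (1.53%, 0.779 to 2.995%), where 3.04% of all regions lost. Of all distal regions called in all 4 libraries, 4.61% gained and 4.20% lost. AP-1 regions without GATA had 55 gains (10.4%) and 10 losses (1.88%), and GATA regions without AP-1 had 142 (4.34%) and 126 (3.85%). Without SCF 2, where the gap is asked of 1 SCF library only, gains numbered 86 of 543 (15.8%) against 5.94% of all regions, and losses 84 (15.5%) against 14.4%. Without SCF 1 the gains were 173 of 583 (29.7%) against 11.2% of all, and the losses 33 (5.66%) against 8.27%. The excess of gains over the share of all regions was thus seen with either SCF library, and the low share of losses was not seen without SCF 2. Without PBS 2 there were 169 gains of 555 (30.5%, all regions 10.4%) and 26 losses (4.68%, all regions 7.20%), and without PBS 1 there were 102 gains of 584 (17.5%, all regions 6.44%) and 50 losses (8.56%, all regions 10.8%).

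By level, both SCF values lay above both PBS values in 188 of the 522 regions (36.0%), where 18.0% of all regions did so. They lay below both in 47 (9.004%), where 18.1% of all regions did so. In AP-1 regions without GATA these shares were 32.8% and 7.16%, and in all distal regions 21.4% and 15.4%. Without SCF 2, the SCF 1 value lay above both PBS values in 241 of 543 regions with both words (44.4%, all regions 36.4%). It lay below both in 153 (28.2%, all regions 33.6%). In limma's moderated test per region, 0 of the 522 passed an adjusted p of 0.05 (Benjamini-Hochberg over all 22355 regions, 0% of which passed, lowest adjusted p 0.686). At an unadjusted p under 0.05, 14.5% of AP-1 regions without GATA were higher with SCF and 1.32% were lower. Of the 522 with both words, 81 were higher at that p (15.5%, all regions 3.93%) and 6 were lower (1.15%, all regions 2.97%). Without SCF 2 the counts were 57 higher (10.5%, all regions 3.54%) and 28 lower (5.16%, all regions 3.798%). No single region can therefore be called changed, and the values of named regions below are descriptions.

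**Figure D3:**
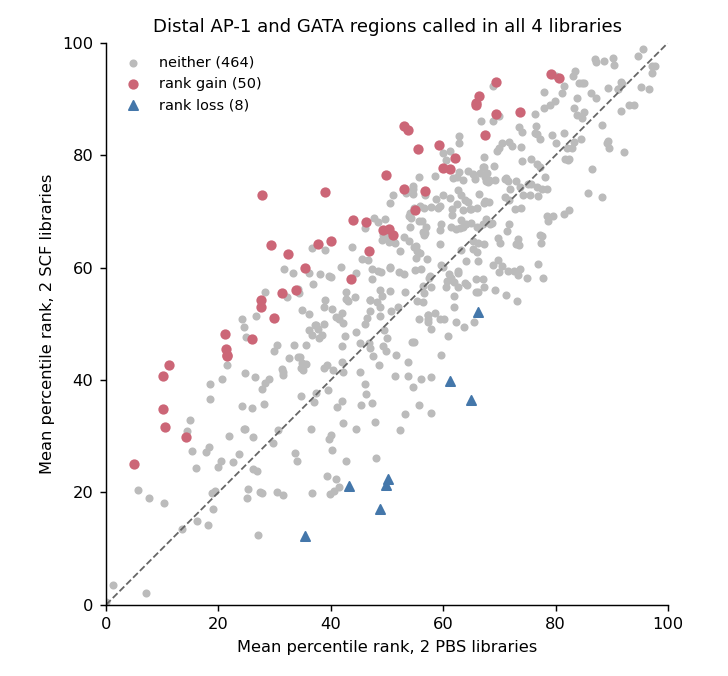
Mean percentile rank in the 2 PBS libraries (x axis) and the 2 SCF libraries (y axis) of the 522 regions with both words called in all 4 libraries, with a dashed line of equal rank. The 50 rank gains (red) lie above the line over much of the range of ranks and the 8 rank losses (blue triangles) below it, with 464 regions in neither class (grey).

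The largest rank gain lay on chr10:7070096-7070680, in an intron of the non-coding gene ENSG00000287277 and 380 kb from the start of SFMBT2, a Polycomb-group gene. Its rank was 23 in PBS 1, 32.7 in PBS 2, 62.4 in SCF 1 and 83.4 in SCF 2, from fold enrichments of 4.89, 5.2, 8.86 and 11.6. Both SCF values were above both PBS values, and the log2 difference of centred levels was 1.01 ± 0.18 (limma SE, unadjusted p = 0.000567, adjusted p = 0.686). The region held 2 AP-1 and 2 GATA words, 52 bp apart at the closest.

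The next gain, in an intron of PTPRK (chr6:128829967-128830510), a receptor-type tyrosine phosphatase, was weak without SCF, with ranks of 4.56 and 15.7 in PBS and 43.1 and 38.2 in SCF libraries. A region in an intron of SCAI, 26.1 kb from the start of the golgin gene GOLGA1 (chr9:127736056-127736666), was already strong with PBS, at 58.4 and 47.5, and had 90.1 and 80.3 with SCF. In an intron of SYNJ2 (chr6:158461336-158461743), which encodes a phosphoinositide phosphatase, ranks were 6.60 and 15.8 with PBS and 37 and 48.1 with SCF. This region held 3 AP-1 words, 1 of them of the long NF-E2 form, and 3 GATA words, with the closest pair 6 bp apart.

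The other 6 of the 10 largest gains spanned weak and strong regions. An intron of EDEM2 (chr20:33707922-33708642), which acts in the degradation of misfolded glycoproteins, had ranks of 30.01 and 34.6 with PBS and 69.2 and 55.6 with SCF. A region 63.2 kb from the start of CDK8, the Mediator kinase gene (chr13:27033211-27033886), had 59.3 and 48.1 with PBS and 88.5 and 80.2 with SCF. An intron of DNAJC16 (chr1:15869898-15870638), a J-domain protein gene, had 66.5 and 65.0 with PBS and 91.2 and 87.3 with SCF. The closest words there lay 3 bp apart, those of CDK8 10 bp and those of EDEM2 6 bp.

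Near SLMAP (chr3:57921153-57921619) the ranks were 59.6 and 58.9 with PBS and 83.7 and 79.8 with SCF. In a UTR where the NR2C2 and MRPS25 genes overlap (chr3:15052258-15053286), 7.47 kb from the start of NR2C2, an orphan nuclear receptor gene, they were 35.2 and 40.3 with PBS and 68.1 and 60.3 with SCF. Near ODF1 (chr8:103553698-103554479) they were 21.1 and 34 with PBS and 53.9 and 54.7 with SCF. Over the 10 gains the fold of SCF over PBS in centred level ran from 1.46 to 2.02, and 4 of the 10 had a gap of at most 10 bp between the words. Over all 50 gains this number was 9 (18.0%), as in the 522 regions (95, 18.2%). Recovered summit pileups behind these values were modest, 8 to 35 fragments.

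The 5 largest rank losses follow. In an intron of GCNT2 (chr6:10519088-10519729), whose enzyme makes the adult I blood group antigen, ranks were 52.8 and 46.8 with PBS and 21 and 21.5 with SCF. The log2 difference there was −0.52 ± 0.16 (limma SE, unadjusted p = 0.0116, adjusted p = 0.686). An intron of LINC01958 (chr2:157529627-157530403) had 58.4 and 71.3 with PBS and 31.6 and 41.2 with SCF. An intron of MCC (chr5:112378549-112379383) had 28.8 and 42.1 with PBS and 13.5 and 11 with SCF. Regions near COLEC11 (chr2:3634780-3635538) and in an intron of TEX41 (chr2:145881383-145882242), 603 kb from the start of the repressor gene ZEB2, had 55.1 and 45.2 against 14.0 and 30.6, and 36.4 and 61.0 against 9.79 and 24.3.

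**Figure D4:**
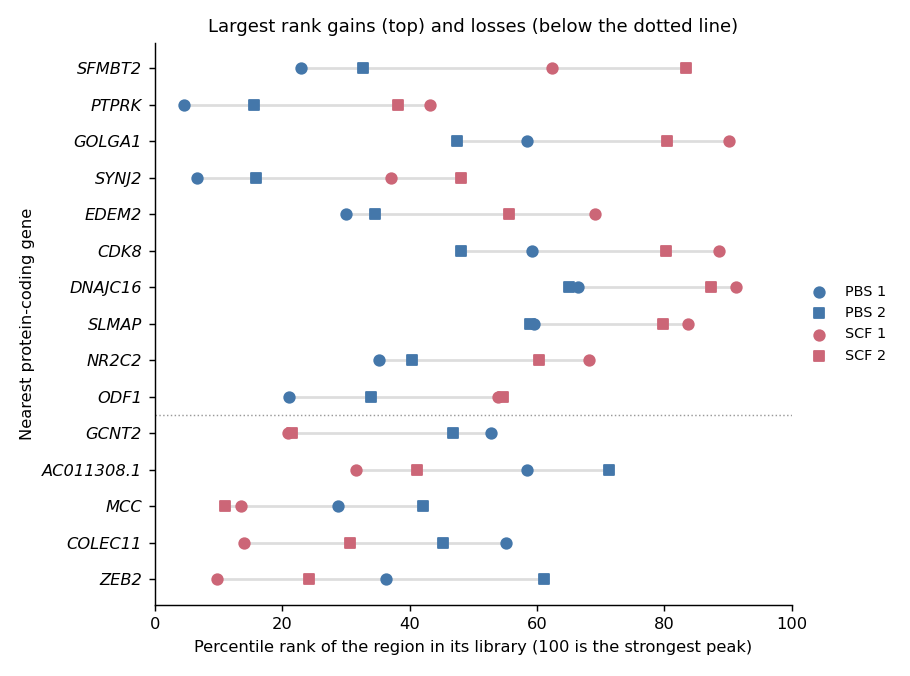
Percentile rank (x axis) in each library (blue PBS, red SCF; circles replicate 1, squares replicate 2) of the 10 largest rank gains and, below the dotted line, the 5 largest rank losses, each row labelled with the nearest protein-coding gene. By the rule for these classes no SCF point overlaps the PBS points; SFMBT2 runs from 23 to 83.4.

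Presence of a peak was compared next, with the reserve that a weak site can fall under the calling threshold. In both SCF and neither PBS library, 39 of the 1215 regions were called (3.21%), where 1.65% of all merged regions were. In both PBS and neither SCF library, 18 were called (1.48%), where 2.37% of all were. Of AP-1 regions without GATA, 4.63% were SCF-only and 2.47% PBS-only, and of all distal regions 2.26% and 3.02%. Without SCF 2, the counts with both words were 87 (7.16%, all merged regions 5.81%) and 79 (6.50%, all merged regions 6.36%), so that the lower share of PBS-only regions was not seen. AP-1 regions without GATA then had 11.1% and 6.80%. In a further 164 of the 1215 regions the only peak was in SCF 2, against 48 in SCF 1, 51 in PBS 1 and 79 in PBS 2. Such single-library peaks were not counted separately over all merged regions, so these numbers are descriptions. In all, 522 regions were called in 4 libraries, 177 in 3, 174 in 2 and 342 in 1. The 522 were 43.0%, against 51.3% of all merged regions, 34.6% of all distal regions and 31.9% of AP-1 regions without GATA.

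The strongest SCF-only region was intronic to MIR548A1HG (chr6:18585143-18585760), 198 kb from the ubiquitin ligase gene RNF144B, with ranks of 58.2 and 63.3 and pileups of 16 and 18 fragments. Others lay 885 kb from CELF4 (chr18:36030782-36031125, ranks 43.9 and 64.2), near NEPRO in a non-coding exon of NEPRO-AS1 (chr3:112770019-112770739, 43.9 and 55.6), in VRK3 (chr19:50507118-50507638, 37.2 and 56.5) and in PKN2-AS1 (chr1:88252456-88252839, 9.79 and 80.8). The last differed far more between its SCF libraries than the others. The strongest PBS-only regions lay 156 kb from DSEL (chr18:65027284-65027796, 62.5 and 44.8), in ELAPOR1 (chr1:109682944-109683321, 51.6 and 51.3) and in MRPS28 (chr8:80932632-80933049, 50.2 and 49.1). They were followed by regions 470 kb from the muscarinic receptor gene CHRM3 (chr1:239080053-239080629, 42.1 and 38.0) and 6.12 kb from GPR45 (chr2:105851912-105852306, 51.6 and 26.5).

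The strongest regions called in all 4 libraries stood near the top of every list. In an intron of the sodium-proton exchanger gene SLC9A5 and 9.15 kb from PLEKHG4 (chr16:67301828-67302433), ranks were 96.1 and 95.1 with PBS and 99.4 and 98.4 with SCF, with pileups of 70, 91, 104 and 93 fragments. The log2 difference was 0.24 ± 0.15 (limma SE, adjusted p = 0.832). The other 4 lay 179 kb from KIZ (chr20:20926878-20927551), in AKAP4 (chrX:49962985-49963650), in GLRA3 (chr4:175602670-175603490) and 250 kb from IPMK (chr10:59777568-59778315), where the genes encode in turn a centrosome protein, a sperm anchoring protein, a glycine receptor subunit and an inositol phosphate kinase. Their ranks lay between 90.3 and 99.7 in every library and their folds of SCF over PBS between 0.885 and 1.10.

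The tightest pairs did not share one response. Of the 5 regions with a shared base, the one in an intron of CTIF, a translation factor gene (chr18:46246585-46247421), had ranks of 43.4 and 57.6 with PBS and 62.8 and 80.3 with SCF, a log2 difference of 0.51 ± 0.17 (limma SE, unadjusted p = 0.0204, adjusted p = 0.686). The one near FAM187B (chr19:35711293-35712090) went the other way in rank, with 68.7 and 65.9 against 55.1 and 58.1, and a log2 difference of −0.23 ± 0.15 (adjusted p = 0.832). The one near DNAJB12 (chr10:74079230-74081000) overlapped between treatments, with 26 and 37.1 against 48.2 and 34.7. Those in C6orf141 (chr6:49524143-49524403) and in a coding exon of the centriole gene STIL (chr1:47745807-47746054) were each called in 1 library, SCF 2 and PBS 2.

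Of the 5 touching pairs, FBXO7 (chr22:32878448-32879145), which encodes a subunit of a ubiquitin ligase, had ranks of 58.6 and 69.3 with PBS and 57.4 and 64.9 with SCF. MAD1L1 (chr7:2001286-2001906), a spindle checkpoint gene, had 59.4 and 49.2 with PBS and 59.99 and 77.6 with SCF. GTF2A1 (chr14:81630498-81630961), PHACTR2 (chr6:143866603-143867532) and ALDH1B1 (chr9:38381090-38381399) were each called in 3 libraries.

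A difference in response by spacing was not detectable with 2 libraries for each treatment. The SCF minus PBS difference of the median was 0.13 for gaps of at most 10 bp (95 regions), 0.14 for 11 to 50 bp (253) and 0.16 for over 50 bp (174), and closest minus widest was −0.025 (exact permutation p = 0.667). That contrast was −0.058 without PBS 2, −0.078 without SCF 2 and −0.17 with recovered pileups, and without SCF 2 the 3 differences were 0.0050, 0.039 and 0.083. Of the close pairs, 67 that read toward AP-1 differed by 0.18 and 28 that read away by 0.095 (exact permutation p = 0.333 and 0.667), or 0.057 and −0.018 without SCF 2. The position of the AP-1 word relative to the summit was examined in the same way, with no test between the classes. Regions with AP-1 within 20 bp of the summit had medians of −0.24 and −0.26 with PBS and −0.12 and 0.044 with SCF, a difference of 0.21 (110 regions). At 21 to 50 bp the difference was 0.20 (170 regions, −0.17 and −0.18 against −0.011 and 0.056), and beyond 50 bp it was 0.088 (242 regions), where the treatments overlapped (−0.23 and −0.13 against −0.17 and −0.0038). Without SCF 2 these 3 differences were 0.13, 0.18 and 0.015. By distance of the GATA word the differences were 0.12 within 20 bp of the summit, 0.15 at 21 to 50 bp (200 regions) and 0.15 beyond 50 bp, and 0.016, 0.095 and 0.038 without SCF 2. The words were not tested against each other.

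Regions with C or G in the middle of an AP-1 word differed by 0.15 (413 regions) and those with only A or T there by 0.094 (109 regions), and the contrast between these sets was 0.057 (exact permutation p = 0.333). It was 0.037 without SCF 2, 0.028 among regions of mean rank of at least 25 and 0.0028 with recovered pileups (exact permutation p = 1). Among the former, the 36 that held the long NF-E2 form had medians of −0.16 and −0.21 with PBS and −0.28 and −0.14 with SCF, which overlap, and a difference of −0.027. The 377 without it had −0.22 and −0.15 with PBS and −0.073 and 0.042 with SCF, a difference of 0.17. The contrast between them was −0.20 (exact permutation p = 0.333), and this split was added after the data were seen. With 1 library left out it ran from −0.13 without PBS 1 to −0.25 without PBS 2. It was −0.097 with 200 bp windows and −0.35 with recovered pileups. In AP-1 regions without GATA, those with the long form differed by 0.16 (54 regions) and those without it by 0.21 (361 regions). Rank gains numbered 1 of the 36 and 40 of the 377. A second GATA word went with a higher level, at −0.089 ± 0.02 with PBS and 0.0014 ± 0.12 with SCF (172 regions), against −0.23 ± 0.03 and −0.085 ± 0.10 with 1 word (350 regions, SD, n = 2).

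Only 5 of the 522 held the EGR word, with a difference of 0.54 (exact permutation p = 0.333), and in 4 of these 5 both SCF values lay above both PBS values. Of all 522 regions 36.0% did so, and of all 22355 regions 18.0%, and 5 regions are too few to compare. Regions that also held an ETS word differed by 0.029 (58 regions), the lowest of the added words with at least 15 regions and −0.038 without SCF 2, and those with E-box CAGCTG by 0.19 (95 regions). By mean rank over the 4 libraries, the difference was 0.12 in regions of mean rank under 33, 0.14 from 33 to 66 and 0.14 at 66 or over.

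**Figure D5:**
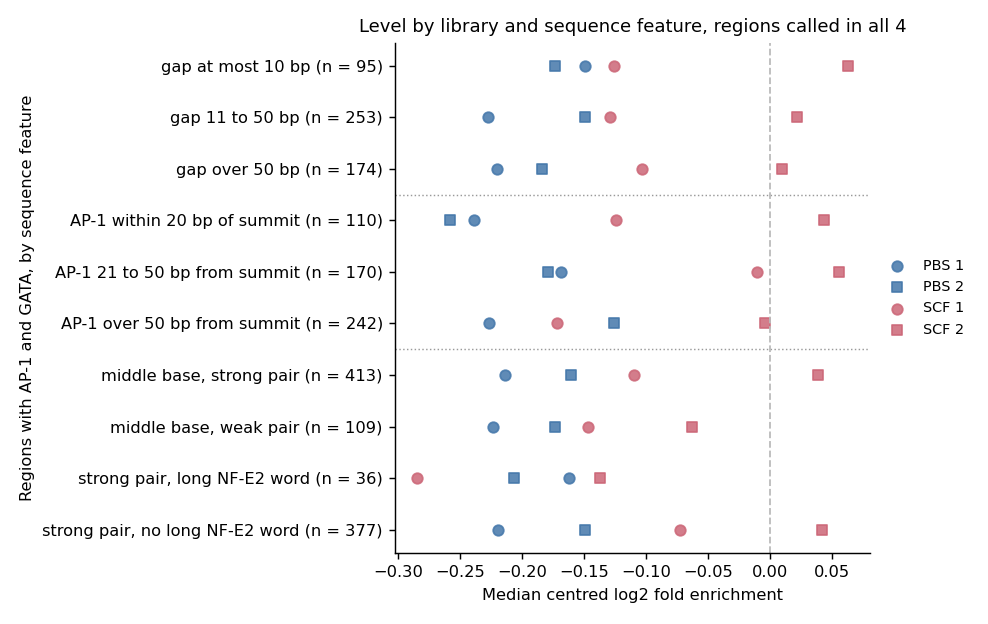
Median centred log2 fold enrichment (x axis) in each library (blue PBS, red SCF; circles replicate 1, squares replicate 2) of the regions with both words called in all 4 libraries, by gap, by distance of AP-1 from the summit and by middle base of the AP-1 word (strong pair, C or G; weak pair, A or T), with the number of regions in brackets. In the 36 regions with the long NF-E2 form the SCF points (−0.28 and −0.14) lie on either side of the PBS points.

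Genes of 5 lists were then matched to regions whose nearest protein-coding start lay within 100 kb. Regions were found near 3 of 25 erythroid factor genes, 6 of 35 red cell genes, 8 of 45 Kit signalling and MAPK feedback genes, 2 of 20 megakaryocyte and platelet genes and 0 of 12 AP-1 genes, 1 region each. Of these 19 regions, 9 were called in all 4 libraries and could be a rank gain or loss, and none of the 9 was. Of the 19, 2 were SCF-only, against 39 of the 1215 (3.21%), and these numbers are too small to compare. Those called in all 4 libraries had a median log2 difference of −0.096 for the 3 erythroid factors, 0.26 for 2 red cell genes, −0.054 for 2 Kit signalling genes and 0.17 for 2 megakaryocyte genes, against a median of single-region differences of 0.15 for all 522 regions and −0.0017 for all 22355.

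Among the factors, a region 17.6 kb from GFI1B, a repressor needed for red cell and platelet formation (chr9:135879234-135880203), had fold enrichments of 7.53 and 7.78 with PBS and 8.96 and 9.24 with SCF. These values did not overlap between treatments, with a log2 difference of 0.25 ± 0.14 (limma SE, adjusted p = 0.803). Both SCF values lay above both PBS values in 36.0% of the 522 regions and 18.0% of all. The pileups of this region were among the highest and did overlap, at 76 and 119 fragments with PBS and 82 and 96 with SCF. An intronic region of MYB, a driver of progenitor growth (chr6:135512677-135513928), had 8.12 and 8.90 with PBS and 7.16 and 8.55 with SCF, which overlap. One in NFE2L2, which encodes the stress factor NRF2 (chr2:178192689-178193220), had 5.33 and 5.61 with PBS and 5.34 and 4.87 with SCF, and held 4 GATA words.

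Among the red cell genes, a region at the β-spectrin gene SPTB (chr14:65255322-65255905) had 8.73 and 8.23 with PBS and 11.7 and 8.97 with SCF, which do not overlap. One 19.3 kb from CPOX, of the haem pathway (chr3:98292566-98293641), had 4.82 and 6.85 with PBS and 7.16 and 6.50 with SCF. An SCF-only region lay in the ankyrin gene ANK1 (chr8:41628122-41628520, ranks 3.60 and 6.05) and was weak. Regions near EPB42 and UROD were called in 3 libraries each.

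Among Kit signalling genes, a region near PIK3R1, a regulatory subunit of PI3 kinase (chr5:67639072-67639677), was called in all 4 libraries. It had fold enrichments of 6.19 and 6.07 with PBS and 5.86 and 5.21 with SCF, lower in both SCF libraries. The region in SPRED2, an inhibitor of the RAS to MAPK pathway (chr2:65586390-65586965), was missing from PBS 2 and had 5.53 in PBS 1 and 7.77 and 6.33 with SCF. Those near DUSP4, GRB2, SPRED1 and SPRY2 were called in 1 or 2 libraries. Of the platelet genes, TUBB1, the platelet β-tubulin (chr20:57595926-57596667), had 10.9 and 9.27 with PBS and 10.7 and 8.81 with SCF, which overlap.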

How the data were processed

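ATAC-seq was carried out by the authors on sgControl HUDEP2 cells, 2 libraries for each treatment. The methods and processing notes name hg38, Bowtie2 and SAMtools, whereas the file headers and the series design name hg19. Coordinates were read as hg19, and all peaks ended inside GRCh37. The methods name the ENCODE ATAC-seq pipeline, and the peak caller and its settings are not given in the sources used here. Each deposited list was called on 1 library. As deposited by the authors, the signal column is a fold enrichment (a ratio of pileup to local background), beside the −log10 p-value, the −log10 q-value and a whole-number score, which was not used. The highest q-value was 0.0497.

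Peaks sharing at least 1 bp were merged, and the summit came from the highest-ranked peak. Starts and gene models came from GENCODE release 44 on GRCh37. A gap is the number of bases between the nearest edges of the words, 0 for an overlap. Summit pileups were recovered as the whole number that returns both the fold enrichment and the Poisson −log10 p, within 0.0001 for 99.8% to 100.0% of peaks. The recovery assumed that 1 is added to both pileup and background in the fold enrichment, which the sources do not state. Tests were limma 3.58.1 (R 4.3.3, moderated test, treatment only) and exact permutation of the libraries (scipy 1.17.1), checked on simulated data. The members and gene lists were chosen with earlier results of these data known.

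Named regions were the 10 largest rank gains, the 5 largest losses, the 5 highest-ranked of the SCF-only, PBS-only and all-library regions, the 10 closest pairs and, for each gene list, the 3 highest-ranked. Regions at some listed genes are counted but not reported singly here. Alternatives were windows of 50 and 200 bp, other distance limits, start sets, peak filters, merging, scaling and rank gaps, and each library left out.

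The labels do not say that the numbers 1 and 2 pair the libraries, and across 22355 regions the deviations of same-numbered libraries correlated at 0.012. Peak names inside the lists carry other replicate numbers (2 for PBS 1, 3 for PBS 2, 1 for SCF 1 and 2 for SCF 2). The labels were followed.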

Additional observations from a re-analysis of the deposited data

How the results depend on the processing

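Of 161 alternative values, 125 kept their direction or, for counts, stayed within 1.5 times the main count (for the share of close pairs, within its Wilson interval), 33 counts or shares moved further and 3 differences reversed. A count within that limit could still differ, as 12 rank losses against 8. With 50 bp windows there were 336 regions, 23.2% with a gap of at most 10 bp, 15 rank gains, 0 losses, 6 SCF-only and 3 PBS-only. With 200 bp windows these were 2891, 11.4%, 92, 32, 90 and 49. The contrast with AP-1 regions without GATA became 0.012 at 50 bp, and the contrast by spacing 0.024 at 50 bp and 0.0057 at 200 bp. The reason for these 3 reversals was not tested. A rank gap of 5 points gave 95 gains and 26 losses, one of 20 points 8 and 1, and ranks by recovered pileup 23 and 6. For these windows and rank settings no share over all regions is given beside the counts. Whether the members exceeded such a share there was not tested, and the counts are descriptions. Leaving out a library, where 1 library stands for a treatment, gave 86 to 173 gains, 26 to 84 losses, 72 to 203 SCF-only and 39 to 97 PBS-only regions. The difference of the member median stayed above 0 in all 17 alternatives, from 0.053 without SCF 2 to 0.22 with pileups, and was 0.11 and 0.13 when centred within bins of GC content or level, chosen after seeing the data. The replicate number as a block, 1 of the 17, could not change it from 0.14, since each number holds 1 library of each treatment. Within numbers 1 and 2 the difference was 0.093 and 0.19. limma made 0 adjusted calls in all 10 alternatives, the block included, with 786 to 1124 regions higher and 562 to 886 lower at an unadjusted p under 0.05, and without SCF 2 more were lower (883) than higher (823). Pileups of 5 to 133 fragments limit weak sites, where absence of a peak is not absence of accessibility.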
